A study of Homo sapiens with 10 samples.

Results

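The 39 HOX genes, chosen as every gene symbol made of HOX, a cluster letter from A to D and a number, were followed in 10 libraries among 57955 genes. Their mRNA was sequenced in 5 melanoma cell lines with a BRAF mutation, which respond to the BRAF inhibitor encorafenib combined with the MEK inhibitor binimetinib (ENCO+BINI), and in the resistant line (E+BRes) raised from each. WM983A, WM278 and WM902B came from primary tumours and WM983B and WM1617 from metastases. The resistant lines were selected by stepping the drug mixture up from 1 nM until 200 nM was reached, which took 3 to 5 months, and stayed in the drugs afterwards, and the sensitive lines are the parental cells they were raised from. There was 1 library per line and state, so a difference within a line has no replicate check, and n = 5 lines for each state. The tests below treat the lines as independent, although by the study's listing WM983A shares a patient with WM983B, and WM278 with WM1617.

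HOX genes encode homeodomain transcription factors that lie in 4 clusters. The order of the genes along a cluster follows the order of the body regions in which they are switched on, from the hindbrain (paralog group 1) to the tail and the ends of the limbs (group 13), and cells of the adult body, skin cells included, keep much of the pattern of the place they came from. Polycomb proteins keep HOX genes silent and Trithorax proteins keep them active. HOX proteins bind DNA together with the TALE cofactors PBX, MEIS and PKNOX, and retinoic acid switches on the genes at the front end of each cluster.

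The libraries held between 13693922 and 18033247 counts, and a HOX gene was called on in a library at 20 raw counts or more. The raw values are expected counts, which can hold fractions of a read, and they are printed here as whole numbers. The resistant WM983A library stood apart. Across 17399 genes, Pearson's r of log2 CPM (counts divided by the library total, on a scale common to all libraries, with 1 CPM added) was 0.83 between it and the sensitive library of its own line and 0.85 between it and sensitive WM902B, whereas each of the other 4 resistant libraries was nearest to its own sensitive line, at 0.89 to 0.98. The study lists WM983A and WM983B as lines from the same patient, and likewise WM278 and WM1617. The sensitive libraries of the first pair had an r of 0.97 over all genes and those of the second 0.82, the lowest of all pairs of sensitive libraries.

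As a check of the labelled cell type, the 8 melanocyte markers summed to between 344 and 4495 CPM in the sensitive libraries and between 82.9 and 4220 CPM in the resistant ones, with 4 to 8 of them on in either state. PMEL, the melanosome fibril protein, and SOX10, the neural crest and melanocyte transcription factor, had the highest levels of that list per kilobase of exon. SOX10 stood at 84, 201 and 10 counts in resistant WM983A, WM983B and WM902B and at 4294 and 5897 in resistant WM278 and WM1617, against 4629 to 5197 in the sensitive libraries. Other markers were low in WM278 in both states. Its sensitive and resistant libraries had 70 and 67 PMEL, 171 and 227 MITF, 9 and 9 TYR and 15 and 55 DCT counts. The other sensitive libraries held 6945 to 28268 PMEL counts. PAX3, like SOX10, was not low in WM278, at 477 and 335 counts. The 8 fibroblast markers summed to between 13.5 and 83 CPM in the sensitive libraries, with 2 to 4 on, and to between 8.66 and 1669 CPM in the resistant ones, with 1 to 6 on. Their highest sum was in resistant WM902B, where the collagen gene COL1A1 reached 18229 counts. PDGFRA, PDGFRB and DCN also rose there, to 1540, 4467 and 66 counts. COL1A2 and THY1 stayed at 3 counts or fewer in both WM902B libraries, and LUM had 412 and 421. Of the 6 keratinocyte markers, KRT1 was at 0 in all 10 libraries, and the list summed to between 20.9 and 82.7 CPM, nearly all of it KRT10 in most libraries. Called genes of these lists were TYRP1 (lower, without the block described below), TYR (lower, with it), COL1A1 (higher, in both fits) and PDGFRB (higher, without it). COL3A1 had 0 or 1 counts in the sensitive libraries and 1, 25, 15, 1 and 276 in resistant WM983A, WM983B, WM278, WM1617 and WM902B. LUM, the other fibroblast marker of high level, had 0 to 1159 counts, and TP63 had 0 to 308. The part of other cell types in the HOX values was not tested, and in bulk RNA fewer cells with a transcript and less transcript per cell cannot be told apart.

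The sequences upstream of 4 HOX genes are shown because the results below turn on these genes: HOXA4, which after scaling for depth was lower in each resistant library than in its parent, HOXD10 and HOXD11, which appeared in resistant WM983A, and HOXD13, which separated the lines. Each is the 250 bases before the RefSeq start on the strand of the gene, 5′ to 3′, in GRCh38.p14. HOXA4 lies on the minus strand at chr7:27130758-27131007, HOXD10 on the plus strand at chr2:176116528-176116777, HOXD11 on the plus strand at chr2:176107030-176107279 and HOXD13 on the plus strand at chr2:176092471-176092720. The windows of HOXD10 and HOXD11 lie in introns of longer annotated transcripts. Capitals mark every match, on either strand, to CACGTG or TCATGTG (the E-box and M-box bound by MITF, the melanocyte master regulator, among other factors), the CCAAT box, the TATA box core TATAAA or TGATNNAT (a PBX-HOX site).
HOXA4: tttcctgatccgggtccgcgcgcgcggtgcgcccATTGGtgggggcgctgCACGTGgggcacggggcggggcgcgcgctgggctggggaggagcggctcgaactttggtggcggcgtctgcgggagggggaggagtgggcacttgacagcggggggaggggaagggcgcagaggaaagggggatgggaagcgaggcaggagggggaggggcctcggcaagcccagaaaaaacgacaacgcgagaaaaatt
HOXD10: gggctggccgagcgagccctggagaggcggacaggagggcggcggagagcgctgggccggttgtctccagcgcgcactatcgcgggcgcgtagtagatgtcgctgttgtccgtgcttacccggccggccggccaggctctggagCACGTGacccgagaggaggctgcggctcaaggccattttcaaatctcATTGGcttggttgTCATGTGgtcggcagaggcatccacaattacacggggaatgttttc
HOXD11: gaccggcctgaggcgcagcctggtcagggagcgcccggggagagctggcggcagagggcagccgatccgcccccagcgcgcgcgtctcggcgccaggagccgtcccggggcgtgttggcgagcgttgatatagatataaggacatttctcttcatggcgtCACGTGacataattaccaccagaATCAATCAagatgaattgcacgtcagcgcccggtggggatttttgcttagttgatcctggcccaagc
HOXD13: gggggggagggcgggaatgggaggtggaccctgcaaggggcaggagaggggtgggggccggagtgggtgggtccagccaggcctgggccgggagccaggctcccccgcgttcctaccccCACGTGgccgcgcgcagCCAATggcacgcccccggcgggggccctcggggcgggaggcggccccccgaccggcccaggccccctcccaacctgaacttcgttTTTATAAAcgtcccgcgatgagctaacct

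Each of these 4 windows held CACGTG once. RefSeq promoter windows were at hand for 20 of the 39 HOX genes, in 27 entries, of which those of HOXC4 and HOXC5 are the same window. CACGTG stood in 8 of the 27 HOX entries, those of 8 genes (HOXA3, HOXA4, HOXA9, HOXD1, HOXD3, HOXD10, HOXD11 and HOXD13), and in 6.34% of the 35116 windows of all genes. TCATGTG stood in 7 of the 27 HOX entries and in 2.52% of all windows, and CCAAT in 18 entries (17 genes) and in 32.0%. TATAAA stood in 5 HOX entries (4 genes) and in 10.7% of all windows, and TGATNNAT in 3 (HOXA2, HOXB1 and HOXD11) and in 6.47%. The AP-1 core site TGANTCA, the CREB site TGACGTCA and the retinoic acid receptor core site AGGTCA matched no HOX window and stood in 6.57%, 1.65% and 12.1% of all windows. A match is a description of letters in a window, and a window without one says nothing about the factor.

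Most HOX genes were expressed in these melanoma lines. Of the 39 genes, 35 were on in at least 1 library, 16 in all 10, and 4 in none (HOXA9, HOXB1, HOXC12 and HOXD12, which peaked at 10, 1, 8 and 13 counts). The 16 that were on everywhere spanned the axis from the hindbrain to the tail end, among them HOXB2, HOXA4, HOXC6, HOXD8, HOXC10, HOXB13 and HOXD13. All members together made up 362 to 666 CPM in the sensitive libraries and 225 to 623 CPM in the resistant ones. The HOXB cluster held the largest sum in 4 of the 5 sensitive libraries, at 161 to 354 CPM, and in sensitive WM983B it held 122 CPM against 146 CPM for HOXA. Per kilobase of exon, the highest mean levels over the 10 libraries were those of HOXB2 with 22.0, HOXB7 with 16.1, HOXB9 with 15.5 and HOXC10 with 11.0 CPM per kilobase.

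**Figure D1:**
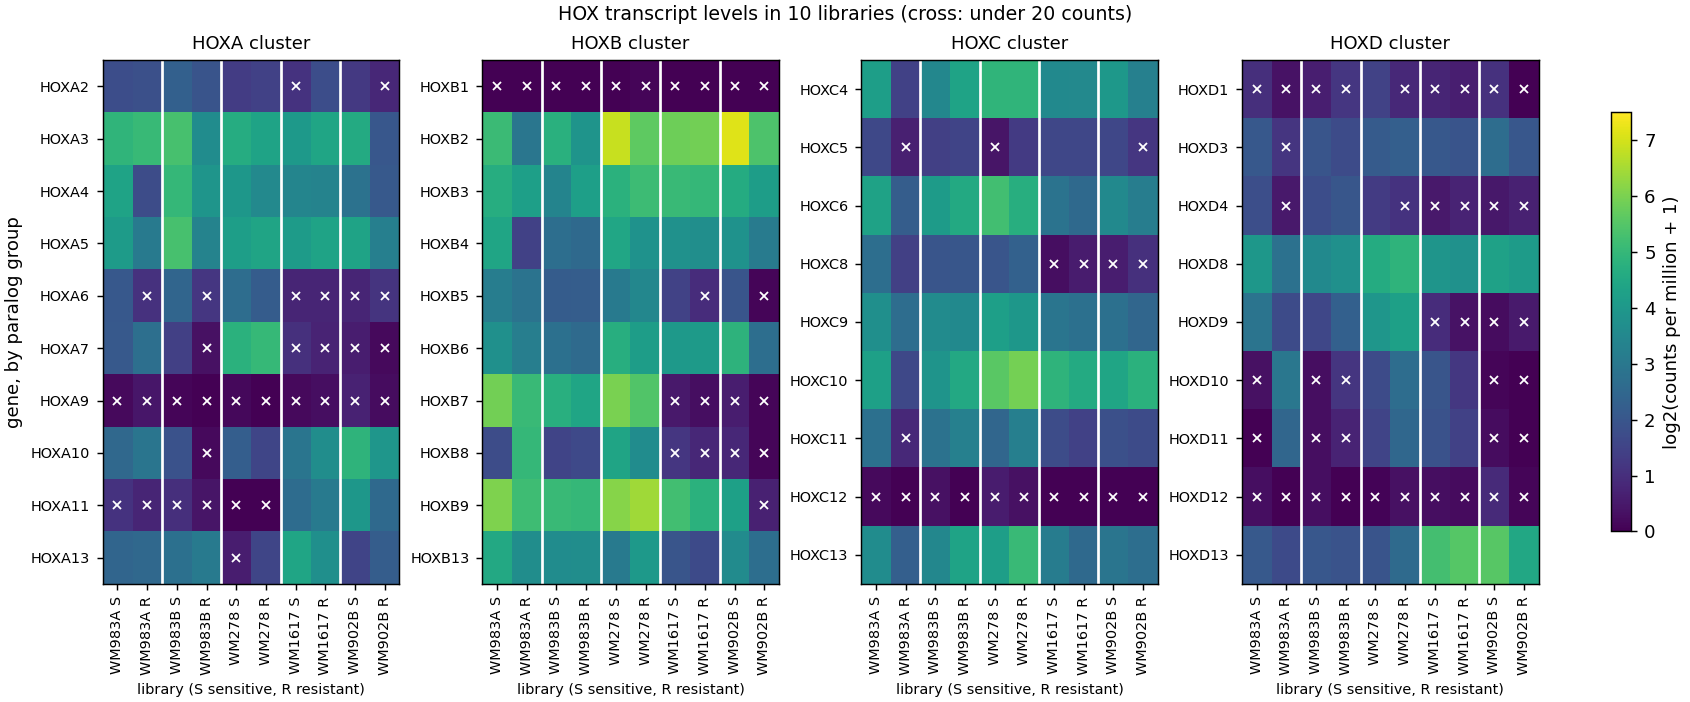
Levels of HOX genes as log2(CPM + 1), by cluster (panels) and paralog group (rows), in 10 libraries (columns, S sensitive and R resistant), with a cross where a gene had under 20 counts. Both libraries of WM1617 and WM902B carry crosses at HOXA6, HOXA7, HOXB7, HOXB8, HOXC8, HOXD4 and HOXD9, and all 10 libraries carry them at HOXA9, HOXB1, HOXC12 and HOXD12.

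The sensitive lines fell into different HOX patterns. In this paragraph and below, the values of a gene are given in the order WM983A, WM983B, WM278, WM1617 and WM902B. HOXB7, which has been described as an activator of FGF2 in melanoma, had 883, 374, 1059, 6 and 8 counts in the sensitive libraries and 451, 299, 674, 4 and 1 in the resistant ones. It was on in both libraries of 3 lines and off in both libraries of WM1617 and WM902B. HOXA7 had 49, 25, 450, 15 and 8 counts in the sensitive libraries and 78, 4, 493, 12 and 2 in the resistant ones. It was highest in both WM278 libraries, and 62.5% of its exon bases are shared with the antisense gene HOXA-AS3, which had 377 and 388 counts in those libraries and at most 61 elsewhere, so that the reads of the pair cannot be told apart. HOXD13, the group 13 gene of the tail end and of the digits, had 49, 46, 49, 519 and 707 counts in the sensitive libraries and 30, 41, 80, 806 and 323 in the resistant ones. Both libraries of WM1617 and WM902B lay above all others. HOXA11, a gene of the forearm and lower leg that was picked out here after its values were seen, had 17, 15, 0, 73 and 225 counts in the sensitive libraries and 10, 5, 0, 136 and 74 in the resistant ones. It was on in the same 4 libraries and at 0 in both WM278 libraries, a count that allows up to 3 counts.

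Counted over the middle of the clusters, 10 or 11 of the 11 genes of paralog groups 5 to 8 were on in sensitive WM983A, WM983B and WM278, against 6 in each of sensitive WM1617 and WM902B. For groups 9 to 13 the 5 sensitive libraries had 10 to 12 of 16 genes on, and for groups 1 to 4 they had 8 to 11 of 12. The lines that the study lists as coming from the same patient were alike in the first pair and unlike in the second. Sensitive WM983A and WM983B had the same 31 genes on, 100% of each list, and r between them was 0.93 across the 39 genes. Sensitive WM278 and WM1617 shared 23 genes, which is 71.9% of the 32 on in WM278 and 88.5% of the 26 on in WM1617, with an r of 0.57. Sensitive WM1617 and WM902B, which are not listed as a pair, shared 24 genes, 92.3% and 96.0% of the lists, with an r of 0.88. These correlations are across genes of single libraries, with no test. The same pairs had all-gene r values of 0.97, 0.82 and 0.93, the same order.

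The on and off states were mostly kept in the resistant line. Of 145 on calls in the 5 sensitive libraries, 130 were kept, or 89.7%, and 15 vanished, or 10.3%. Over all genes 5.57% of on calls vanished, and 5.84% over the genes with 20 to 2171 counts in the sensitive library, the range of the HOX genes that were on. Of 50 HOX off calls, 5 appeared, or 10.0%, against 2.91% over all genes, most of which were far from 20 counts. Each line had 1 library per state, so these shares carry no test. Without both WM983A libraries 8.77% of HOX on calls vanished, against 4.36% over all genes, and 7.14% of HOX off calls appeared, against 2.75%. With 10 counts as the threshold 27.03% of HOX off calls appeared, which was 10 of 37, against 3.71% over all genes. The values nearest to 20 counts were 21 (HOXA2, sensitive WM902B), 22.1 and 22.6 inside, and 18.7, 18.7 and 18.9 (HOXD1, resistant WM983B) outside.

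By line, 26 of 31 on genes were kept in WM983A, 28 of 31 in WM983B, 30 of 32 in WM278, 25 of 26 in WM1617 and 21 of 25 in WM902B. In that order the HOX shares kept were 83.9%, 90.3%, 93.75%, 96.15% and 84.0%. Over all genes on in the sensitive library they were 89.6%, 95.4%, 96.3%, 97.1% and 93.8%. Genes appeared in WM983A (HOXD10 and HOXD11), WM278 (HOXA13 and HOXC5) and WM1617 (HOXA2). The exact 95% Poisson intervals of the sensitive and the resistant count, which cover counting error only, did not overlap in 15 of the 20 changes. The changes were picked because these same counts lay on either side of the threshold, which favours a lack of overlap. The share over all genes that changed state was not counted, so this has no background to be read against. The intervals overlapped for HOXD1 and HOXD4 in WM278, HOXB5 in WM1617, and HOXA2 and HOXC5 in WM902B. Of these 5, the counting interval of the fold itself included 1 for all but HOXD1, which was 2.24-fold lower with an interval of 1.15 to 4.74.

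The clearest appearance was at the HOXD cluster of WM983A. HOXD10, a gene of the lumbar spinal cord and hindlimb on chromosome 2 (176108790 to 176119937, plus strand, ENSG00000128710), had 4, 3, 39, 41 and 1 counts in the sensitive libraries and 94, 18, 86, 24 and 0 in the resistant ones. In WM983A it was 24.3-fold higher in the resistant library after scaling for depth, with a counting interval of 10.4 to 103. HOXD11, its neighbour on chromosome 2 (176104216 to 176109754, plus strand, ENSG00000128713), had 0, 3, 32, 38 and 3 counts in the sensitive libraries and 62, 10, 74, 31 and 0 in the resistant ones. In WM983A it was at least 24.1-fold higher, taking 3 counts as the floor in the library at 0. Both genes lie beside HOXD9, HOXD8, HOXD4 and HOXD3, which were each at least 2-fold lower in resistant WM983A, and 18.2% of the exon bases of HOXD10 and 21.4% of those of HOXD11 are shared between them. In WM983B, where both stayed under 20 counts, HOXD10 was 5.65-fold higher (interval 1.66 to 30.1) and HOXD11 3.16-fold higher with an interval of 0.813 to 17.9, which includes 1. In WM278, where both were on in the sensitive library, they were 2.27-fold and 2.38-fold higher in the resistant one, whereas in WM1617 they were 2.16-fold and 1.52-fold lower and in WM902B they were at 3 counts or fewer in both libraries. Over the 5 lines the log2 fold change was 1.36 ± 1.21 (SE) for HOXD10 with an unadjusted p of 0.287 by edgeR's quasi-likelihood test, and 1.21 ± 1.24 (SE) for HOXD11 with an unadjusted p of 0.352, so neither passed.

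In the same resistant WM983A library the whole HOXC cluster stood low. All 8 HOXC genes that were on in either library of that line were at least 2-fold lower, and in no other line was a HOXC gene that was on in either of its libraries 2-fold lower. HOXC10, a gene of the lumbar region and hindlimb, had 272, 200, 801, 398 and 311 counts in the sensitive libraries and 29, 324, 944, 411 and 403 in the resistant ones. The fall in WM983A was 8.09-fold (interval 5.47 to 12.2), while the other 4 resistant libraries held 324 to 944 counts. HOXC11 had 87, 89, 77, 33 and 40 counts in the sensitive libraries and 11, 126, 131, 31 and 34 in the resistant ones, and HOXC9, a gene of the thoracic region, had 183, 166, 299, 91 and 89 counts in the sensitive libraries and 74, 159, 231, 104 and 69 in the resistant ones. HOXC11 had its lowest count of all 10 libraries in resistant WM983A, and HOXC9 had its lowest in resistant WM902B and resistant WM983A. HOXC5 had 31, 25, 6, 28 and 31 counts in the sensitive libraries and 8, 28, 22, 36 and 19 in the resistant ones. It reached at most 36 counts, and 67.3% of its exon bases are shared with other genes of its strand. HOXB8 moved the other way in resistant WM983A: picked out after its values were seen, it had 35, 28, 333, 18 and 12 counts in the sensitive libraries and 426, 32, 180, 14 and 1 in the resistant ones. It was 14.4-fold higher in that library (interval 10.1 to 20.7), and HOXB-AS4, an antisense transcript of the same cluster, had 25 counts there and 0 in the other 9 libraries.

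At least 2-fold changes within a line were counted among genes on in either of its libraries. In WM983A 17 of 33 HOX genes were at least 2-fold lower and 3 higher, against 19.3% lower and 20.3% higher over all genes. In WM902B 10 of 25 were lower and none higher, against 12.1% and 16.8%, and in WM983B 6 of 31 were lower and none higher, against 11.5% and 18.0%. In WM278 2 of 34 were lower and 4 higher, against 7.77% and 12.8%, and in WM1617 1 of 27 was lower and 1 higher, against 3.68% and 2.41%. The median log2 ratio of the HOX genes stood at -1.01 for WM983A and -0.81 for WM902B, and at -0.14, -0.05 and 0.13 for WM983B, WM1617 and WM278, where the medians over all genes lay between -0.01 and 0.07. The 3 lines whose resistant libraries held 201 SOX10 counts or fewer, WM983A, WM902B and WM983B, were those with the 3 lowest HOX medians. This ranking was made after the values were seen, and the medians of WM983B and WM1617 lay close together. The standard deviations of the HOX log2 ratios in these 2 lines were 1.05 and 0.49. The part of the lost melanocyte markers in these values was not tested.

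**Figure D2:**
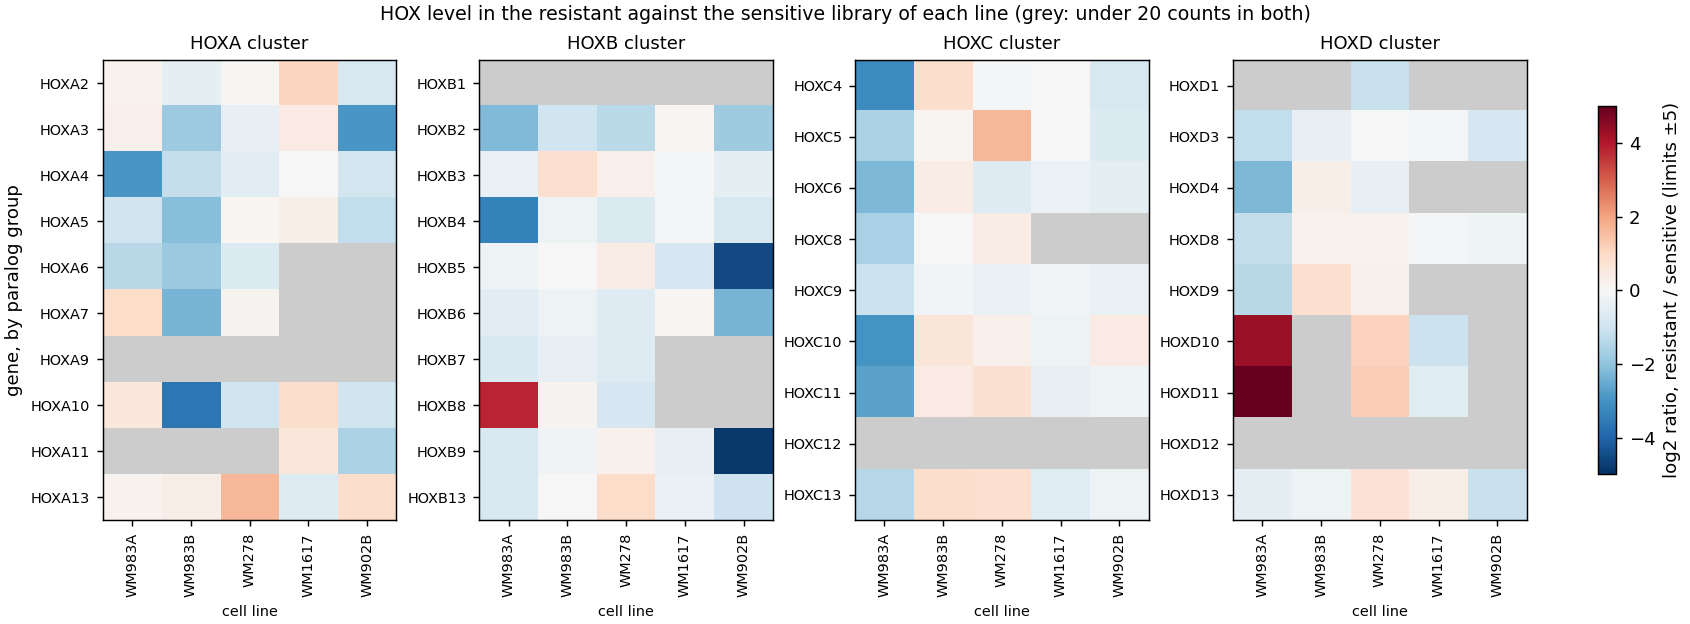
Log2 ratios, resistant over sensitive, in each line (columns) for HOX genes (rows, by cluster), from depth-scaled counts with 1 added, with blue for lower, red for higher and grey where both libraries had under 20 counts. The blue column of WM983A in the HOXC panel covers 8 genes, the darker blue cells of WM983B sit in HOXA, those of WM902B in HOXA and HOXB, and the 3 dark red cells are HOXB8, HOXD10 and HOXD11 in WM983A.

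The clusters that moved differed between the lines. In WM983B all 6 genes that were 2-fold lower were HOXA genes (HOXA3, HOXA4, HOXA5, HOXA6, HOXA7 and HOXA10), of 9 HOXA genes on in either library, and the HOXA sum went from 146 to 62.1 CPM while the HOXC sum went from 72.3 to 108 CPM. In WM902B the lower genes were 4 HOXA, 5 HOXB and 1 HOXD gene, none of HOXC, and the HOXB sum went from 239 to 78.2 CPM. In WM983A the HOXC sum went from 92.1 to 19.8 CPM. In WM1617 the 4 cluster sums moved little, HOXA from 82.4 to 91.1 CPM and HOXB from 161 to 148 CPM. A difference between lines could not be tested with 1 library per line and state.

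HOXA10, a gene of the lumbar region and the uterus, had 71, 40, 64, 92 and 439 counts in the sensitive libraries and 89, 2, 31, 214 and 215 in the resistant ones. The low value was resistant WM983B, 16.9-fold under its sensitive library with a counting interval of 5.48 to 180, and the highest were both libraries of WM902B and resistant WM1617. HOXA6 had 48, 66, 91, 10 and 11 counts in the sensitive libraries and 15, 19, 55, 13 and 18 in the resistant ones. It vanished in WM983A and WM983B and was off in both libraries of WM1617 and WM902B, with 40.1% of its exon bases shared with other genes. HOXA2, which patterns the hindbrain and the pharyngeal arches, had 36, 57, 26, 16 and 21 counts in the sensitive libraries and 35, 42, 27, 43 and 12 in the resistant ones. It stayed between 12 and 57 counts, close to the threshold throughout. HOXA13, the group 13 gene of the limb ends and the urogenital tract, had 67, 85, 9, 283 and 29 counts in the sensitive libraries and 65, 111, 31, 224 and 54 in the resistant ones. Both WM1617 libraries lay above all others, and WM278 went from under to over the threshold, 3.46-fold higher with an interval of 1.63 to 8.37.

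HOXB9, a gene of the thoracic region on chromosome 17, had 974, 484, 1177, 511 and 282 counts in the sensitive libraries and 481, 458, 1334, 480 and 9 in the resistant ones. Resistant WM902B was far under the other 9 libraries, 30.9-fold lower than its sensitive library (interval 16.1 to 68.3). HOXB5 had 119, 52, 125, 25 and 45 counts in the sensitive libraries and 86, 54, 160, 17 and 1 in the resistant ones. The 1 count of resistant WM902B corresponded to a fall of 44.4-fold with an interval of 7.57 to 1793. Among the genes outside the naming rule, picked out after their values were seen, HOXA3 went from 353 to 46 and HOXB6 from 428 to 84 counts in the same line. Resistant WM902B was also the library with the highest fibroblast marker sum and the lowest SOX10 count, beside which these falls stand.

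Of the small HOXD genes at the front end of the cluster, HOXD1 had 15, 8, 30, 10 and 17 counts in the sensitive libraries and 4, 19, 13, 10 and 0 in the resistant ones. It was on only in sensitive WM278, and 60.1% of its exon bases are shared with transcripts of the other strand, HAGLR among them. HOXD3 had 48, 43, 59, 44 and 83 counts in the sensitive libraries and 17, 34, 60, 51 and 46 in the resistant ones, and HOXD4 had 37, 35, 25, 6 and 6 counts in the sensitive libraries and 6, 45, 18, 12 and 9 in the resistant ones. Resistant WM983A was the lowest library for HOXD3 and tied lowest for HOXD4. HOXD8, which with HOXD13 had the highest level of its cluster per kilobase, had 220, 157, 400, 198 and 290 counts in the sensitive libraries and 81, 185, 444, 234 and 247 in the resistant ones. It was on in every library and 2-fold lower in WM983A only.

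Across the 5 lines no HOX gene passed the test of resistant against sensitive libraries. A gene was called at an unadjusted p of at most 0.05 by edgeR's quasi-likelihood test and a change of at least 2-fold. Of 17287 genes tested, 0.879% were called lower and 3.53% higher. Of the 35 HOX genes tested 0 were called in either direction, 0 had an unadjusted p of at most 0.05 with edgeR and 0 with DESeq2 or limma-voom, and the smallest Benjamini-Hochberg adjusted p among them was 0.731. The fold changes leaned to lower values: 28 of the 35 were negative, with a median log2 fold change of -0.26, against 0.03 over all genes. Leaving out both libraries of WM983A gave 21 negative and a median of -0.15, leaving out those of WM902B gave 22 and -0.13, and leaving out those of WM278 gave 30 of 34 and -0.43. For none of the 39 genes did the depth-scaled levels of the 2 groups separate. The share of all genes whose groups separate was not counted, so this has no background to be read against.

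With the cell line as a block, which compares each resistant library with its own sensitive one, 2.05% of all genes were called lower and 3.49% higher, and 2 of the 35 HOX genes, HOXB2 and HOXA4, were called lower and 0 higher. No HOX gene reached an adjusted p of 0.05 in that fit either, the smallest being 0.461. HOXB2, a gene of the hindbrain on chromosome 17 (48540894 to 48545109, minus strand, ENSG00000173917), had the highest mean level per kilobase of all HOX genes, with 504, 382, 1955, 790 and 2171 counts in the sensitive libraries and 92, 204, 760, 1057 and 624 in the resistant ones. It was lower in 4 of the 5 resistant libraries and within 1.07-fold in WM1617, and the groups overlapped. Its log2 fold change was -1.25 ± 0.35 (SE) with the block (unadjusted p = 0.00915, adjusted p = 0.461) and -1.16 ± 0.66 (SE) without it (unadjusted p = 0.107, adjusted p = 0.760). In fits added after seeing the data, the block without WM983A gave -1.01 (unadjusted p = 0.0229), and HOXB2 was called whichever line was left out.

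HOXA4, a gene of the neck region on chromosome 7 (27128507 to 27130780, minus strand, ENSG00000197576), had 286, 449, 250, 135 and 95 counts in the sensitive libraries and 32, 206, 167, 165 and 49 in the resistant ones. After scaling for depth it was lower in 5 of 5 lines, by 7.72-fold in WM983A, 2.31-fold in WM983B, 1.47-fold in WM278, 1.02-fold in WM1617 and 1.90-fold in WM902B. Its log2 fold change was -1.09 ± 0.44 (SE) with the block (unadjusted p = 0.0421, adjusted p = 0.467) and -1.05 ± 0.55 (SE) without it (unadjusted p = 0.0850), and 47.8% of its exon bases are shared with other genes of either strand. Under the block HOXA4 was not called without WM983A (log2 fold change -0.68, unadjusted p = 0.0490), nor without WM983B, WM278 or WM902B (unadjusted p = 0.107, 0.0579 and 0.0803). HOXA5, a gene of the neck and lung, had 244, 569, 293, 230 and 298 counts in the sensitive libraries and 103, 135, 312, 351 and 125 in the resistant ones. It was at least 2-fold lower in WM983A, WM983B and WM902B and within 1.22-fold in the other two, with a log2 fold change of -0.74 ± 0.39 (SE) and an unadjusted p of 0.0853. Without the WM1617 libraries its log2 fold change was -1.04 with an unadjusted p of 0.0390, and it would have been called. HOXB7 had an unadjusted p of 0.0329 with the block, at a log2 fold change of -0.84 ± 0.32 (SE), under the 2-fold limit. HOXB4, HOXC9 and HOXB7 were, with HOXA4, the 4 genes lower in all 5 lines, and none was higher in all 5. In WM1617 the counting interval of the fold included 1 for each of these 4 genes, and HOXB7 had 6 and 4 counts there. The share of all genes lower in all 5 lines was not counted.

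**Figure D3:**
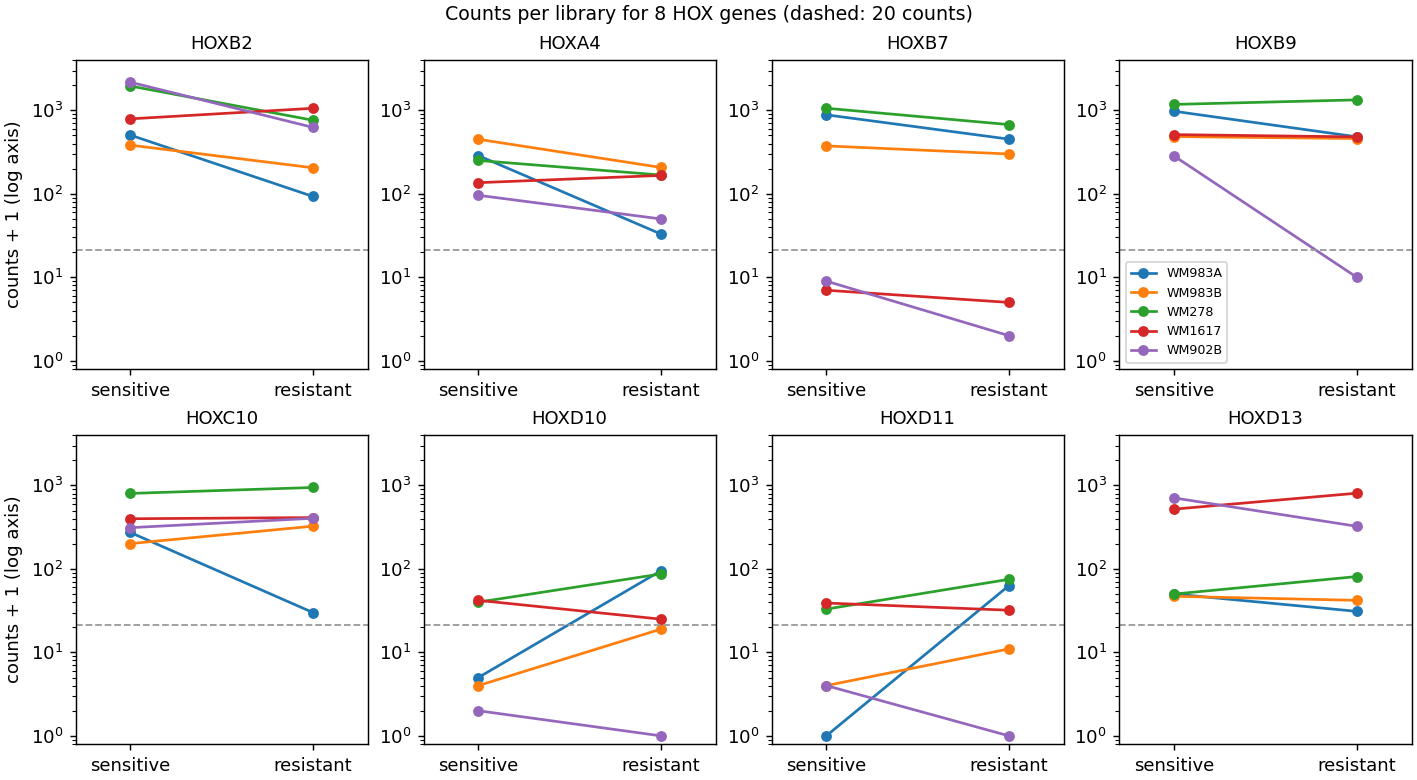
Counts with 1 added (log axis, not scaled for depth) in the sensitive and resistant library of each of the 5 lines for 8 HOX genes, with each line joined by a segment in its colour and a dashed line at 20 counts. HOXB2 falls in 4 lines, HOXB9 falls to 9 counts only in WM902B, HOXC10 falls only in WM983A, HOXD10 and HOXD11 cross the dashed line upward in WM983A, and HOXD13 stays split between WM1617 and WM902B above and the other 3 lines below.

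Of the 17 genes that the naming rule left out, 4 were the genes on in no library. A further 9, among them HOXA3, HOXB4, HOXB13 and HOXC13, were on in all 10, at 24 counts (HOXC4, resistant WM983A) to 620 counts (HOXC6, sensitive WM278). HOXC8 and HOXD9 were on in both libraries of WM983A, WM983B and WM278, at 23 to 283 counts, and off in all 4 libraries of WM1617 and WM902B, at 3 to 16 counts. HOXA11 and HOXB8 are given above.

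The HOX pattern of 4 of the 5 resistant libraries was most like that of its own sensitive line. Pearson's r across the 39 genes was 0.98 for WM1617, 0.96 for WM278, 0.90 for WM983B and 0.89 for WM902B. For WM983B the r with sensitive WM983A, 0.89, was nearly as high as with its own line. Resistant WM983A had an r of 0.65 with its own sensitive line and 0.68 with sensitive WM278, and the order was the same with Spearman's rho and with 0.1 CPM added. Its r with sensitive WM902B was 0.36, the lowest of the 5, although over all genes WM902B was its nearest sensitive library. Of the genes that set WM1617 and WM902B apart from the other lines, HOXB7 and HOXB8 had 451 and 426 counts in resistant WM983A, and HOXD13 and HOXA11 had 30 and 10. Resistant WM983A and resistant WM902B, the libraries with the lowest HOX medians, had an r of 0.17 with each other, the lowest of all pairs of libraries.

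**Figure D4:**
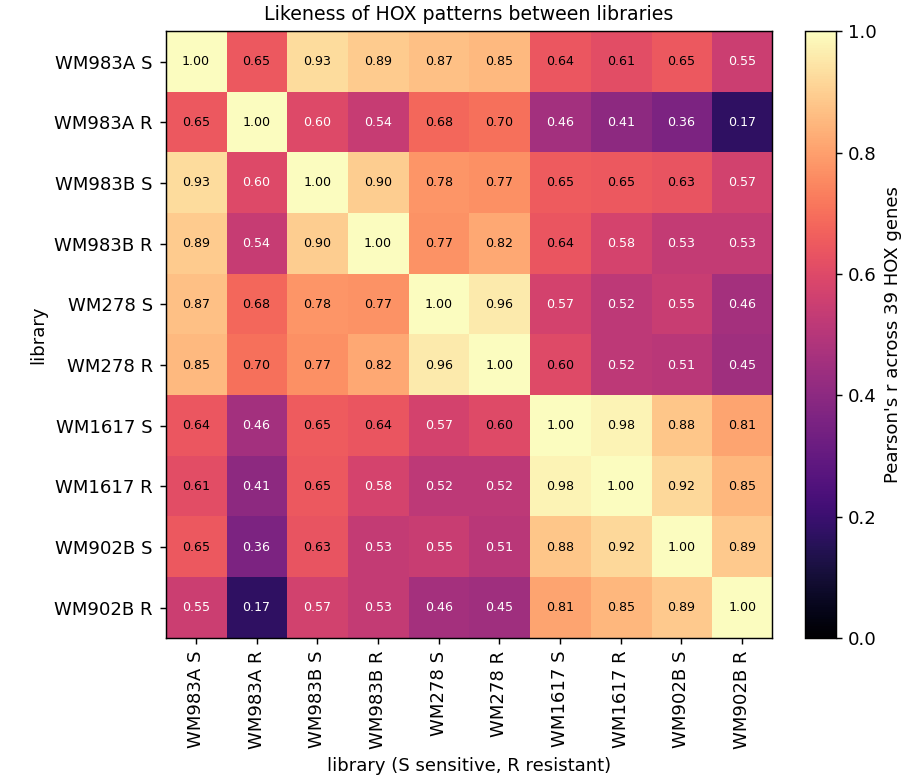
Pearson's r of log2(CPM + 1) across the 39 HOX genes between each pair of the 10 libraries (S sensitive, R resistant), on a colour scale from 0 to 1 with the value in each cell. WM1617 and WM902B form a block, WM983A S, WM983B and WM278 another, and WM983A R has its lowest value, 0.17, with WM902B R.

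The non-coding RNAs of the clusters showed few differences shared over lines. Of 18 in the files, 10 were tested, 0 were called in either fit, and their median log2 fold change was -0.23 against 0.03 over all genes. HOTAIRM1, a transcript of the HOXA cluster, had the highest level of the list per kilobase, with 36 to 189 counts in the sensitive libraries and 50 to 253 in the resistant ones. HAGLR, on the other strand of HOXD1, went from 353 to 97 counts in WM983A and from 345 to 26 in WM902B, and from 267 to 318 in WM1617. HOTAIR, the HOXC transcript described as a partner of Polycomb and picked out here after its values were seen, had 9 to 19 counts in the sensitive libraries and 118 and 71 counts in resistant WM983B and WM278, with 3 in resistant WM983A, where the HOXC genes were low.

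Of the 9 TALE cofactors, 7 were tested and 0 were called without the block. PBX4 was called higher with it, with a log2 fold change of 1.14 and an unadjusted p of 0.00761, being 2-fold higher in 3 lines. The cofactors with the highest levels per kilobase, MEIS3 and PBX3, had unblocked log2 fold changes of 1.26 (unadjusted p = 0.103) and -0.63 (unadjusted p = 0.0380, under the 2-fold limit). Of the 14 genes of retinoic acid and CDX, 8 were tested and 0 were called without the block. CYP26B1, which breaks down retinoic acid, was at least 2-fold higher in 4 of 5 lines, from 1, 19, 15, 413 and 514 counts to 136, 119, 57, 451 and 1542, and was called with the block (log2 fold change 2.13, unadjusted p = 0.0419) but not without it (unadjusted p = 0.399). ALDH1A3, which makes retinoic acid and had the highest level of the list, had 28683, 9909, 41054, 336 and 1124 counts in the sensitive libraries and 523, 2883, 20572, 1288 and 128 in the resistant ones, with an unadjusted p of 0.256. RARG, a retinoic acid receptor named for its level, had a log2 fold change of -0.0004 (unadjusted p = 0.999). The other receptors of the list, picked out after their values were seen, differed from it. RXRA had an unblocked log2 fold change of 0.84 (unadjusted p = 0.0109), under the 2-fold limit. RARA had -0.30 (unadjusted p = 0.328) and RARB 0.69 (unadjusted p = 0.614). CDX2, a caudal activator of HOX genes picked out after its values were seen, had 14 counts in resistant WM983A and 0 in the other 9 libraries.

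Nearly all the regulators that hold HOX genes off or on were on in every library. Of 17 Polycomb genes 16 were on in every library and tested, and of 11 Trithorax genes and H3K27 demethylases all 11 were. RING1, the other Polycomb gene, had 2 to 10 counts and was off in every library. In neither list was a gene called in either direction by either fit, and the medians of the log2 fold changes were -0.04 in both. PHC2, among the Polycomb genes of highest level per kilobase, had a log2 fold change of -0.56 (unadjusted p = 0.0590). EZH2 and EZH1, picked out after their values were seen, moved in opposite directions, both under the 2-fold limit. Without the block they had -0.62 and 0.77 (unadjusted p = 0.0950 and 0.0382). With it they had -0.71 and 0.67 (unadjusted p = 0.0163 and 0.0400, adjusted p = 0.461 and 0.467). WDR5 and ASH2L led the other list, with -0.04 and -0.60 (unadjusted p = 0.852 and 0.0270).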

How the data were processed

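mRNA from 10 melanoma cell lines was sequenced as 1 library each, after oligo-dT selection, with single-end reads. The authors used HISAT2 for alignment to GRCh38 and StrandNGS for quantification; versions, gene annotation, strand setting and the treatment of shared reads are not given in the sources used here. The raw values deposited by the authors are expected counts for 57955 Ensembl genes. The normalized values deposited are log2 ratios of each resistant library to its sensitive one and were used only to recover 455 raw values of sensitive WM983B that had been turned into dates (1 HOX gene, HOXD1).

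The HOX genes, the gene lists and the tests were chosen with earlier results of these data known. Expected counts were rounded, filtered with filterByExpr by state, normalized by TMM and tested with edgeR 4.0.16 (glmQLFit, glmQLFTest, two-sided, Benjamini-Hochberg adjustment) in R 4.3.3, 5 resistant against 5 sensitive libraries without a block, the study's description of its test naming no pairing. HOXA9, HOXB1, HOXC12 and HOXD12 did not pass the filter. Each SE was derived from the test, as the absolute log2 fold change divided by the square root of the F statistic. The cell line as a block pairs each resistant line with its parent; same-line libraries deviated from their group means with correlations of -0.06 (WM983A), 0.54, 0.68, 0.67 and 0.38. Within a line, ratios were taken from TMM-scaled counts with 1 added, and folds against a library at 0 used a floor of 3 counts. Alternatives were DESeq2 1.42.0, limma-voom (limma 3.58.1), DESeq2 size factors, no filter, an exact permutation test, other thresholds and leaving out lines. The tests were checked on simulated data. The rest used Python 3.11.15 with scipy 1.17.1, numpy 2.4.6 and pandas 2.3.3, and matplotlib 3.10.9 drew the figures.

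Libraries held 13693922 to 18033247 counts. Exon lengths, positions and overlaps came from GENCODE 44, which held 56911 of the files' gene identifiers; 25 of the 39 HOX genes share exon bases with another gene, 9 of them over 25%. All values are given for HOX genes whose state changed in a line, that were called in either fit, or that were among the 2 highest per kilobase in a cluster. Genes of the lists of cluster non-coding RNAs, cluster neighbours, TALE cofactors, retinoic acid and CDX genes, Polycomb, Trithorax, other positional genes and cell type markers are named when called, when 2-fold changed one way in 4 lines on counts with 1 added, or when among the 2 highest of their list. Nothing shows that the libraries of a state are more than single cultures, so p-values measure the spread between lines. Values of some genes that these rules would name are not reported here.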

Additional observations from a re-analysis of the deposited data

Results flagged for a closer look

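In 4 of 70 groups of 5 libraries, 2 for each of the 35 HOX genes on in any library, 1 library lay far from the other 4 on the log2 scale by Dixon's test, and chance flags about 1 in 20 groups. HOXA5 had 569 counts in sensitive WM983B against 230 to 298 in the other sensitive libraries. HOXB3 had 140 counts in sensitive WM983B against 364 to 460. HOXC5 had 6 counts in sensitive WM278 against 25 to 31. HOXB9 had 9 counts in resistant WM902B against 458 to 1334 in the other resistant libraries.

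The log2 ratio of HOXC4 was below 0 in the 3 lines from primary tumours, with a mean of -1.36, and above 0 in the 2 lines from metastases, with a mean of 0.44, a difference of -1.80 that was not tested. HOXC4 was picked from among the HOX genes for this split, and the share of all genes with such a split was not counted. The sign was not set beyond counting error in every line: the ratio was -0.08 in WM278 (1.06-fold lower, interval 0.928 to 1.20) and 0.0025 in WM1617 (1.00-fold, interval 0.806 to 1.25). The first mean rests mostly on WM983A, at -3.19, with WM902B at -0.81, and the second on WM983B, at 0.88.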

How the results depend on the processing

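The count of HOX genes called lower was 0, and 2 with the cell line as a replicate block (HOXB2 and HOXA4). Leaving out a line gave 0 to 1, the 1 being HOXA5 without WM1617. With the block, in fits chosen after seeing the data, leaving out a line gave 1 to 4 genes called lower: HOXB2 in each, HOXA4 with HOXA5 and HOXA11 without WM1617, and HOXB7 without WM983B. The count called higher stayed at 0 in every alternative run. DESeq2, limma-voom, DESeq2 size factors, no filter on low counts, the exact permutation test, a 1.5-fold limit and leaving out resistant WM983A alone gave 0 in both directions. The replicate block changed no other HOX call. The share of HOX on calls kept was 86.2% to 91.8% with thresholds of 50 and 10 counts and 88.2% to 91.2% when a line was left out. The share of off calls that appeared was 27.03% with 10 counts, 12.8% with 50 counts and 6.98% to 13.9% when a line was left out. A threshold scaled to library size changed neither share. With other scaling or another pseudocount the within-line HOX median stayed between -1.04 and -0.96 in WM983A and between -0.81 and -0.76 in WM902B. Another measure of likeness moved the r of resistant WM983A with its own sensitive line from 0.65 to 0.63 or 0.69. The correlations are single values with no spread to compare with. Genes near 20 counts, 20 of 390 values lying from 16 to under 25, can change state by counting error.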

Other observations

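Other genes of positional identity also differed in single resistant lines. Of 18 such homeobox and T-box genes outside the HOX clusters, 9 were tested and 0 were called in either fit, with a median log2 fold change of 0.11. PITX1, a hindlimb gene, had 3, 1, 3, 5 and 10 counts in sensitive WM983A, WM983B, WM278, WM1617 and WM902B and 893, 14, 19, 2 and 306 in the resistant libraries, so that it was on in resistant WM983A and WM902B alone. SIX2 had 0, 0, 2, 0 and 6 counts in the sensitive libraries and 7, 8, 8, 1 and 43 in the resistant ones. MSX2 had 1, 0, 0, 130 and 105 counts in the sensitive libraries and 35, 2, 5, 96 and 290 in the resistant ones, so that only WM983A and WM902B gave a rise of 2-fold above a floor of 3 counts, and its sensitive levels split the lines as HOXD13 did. LMX1B and BARX1 were on in sensitive WM1617 and WM902B and under 2 counts in the other sensitive libraries. TBX2 and TBX3, T-box genes of limb and melanocyte lineages, had the highest levels of the list, with unadjusted p-values of 0.657 and 0.504. EMX2 had 121 counts in sensitive WM983A and 0 in the resistant one.

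Of 11 genes flanking the HOX clusters, 5 were tested and 0 were called. HIBADH and MTX2, next to the HOXA and HOXD clusters, had the highest levels, with log2 fold changes of 0.54 (unadjusted p = 0.137) and -0.26 (unadjusted p = 0.147) by edgeR. In WM983A, where HOXD10 and HOXD11 appeared, MTX2 had 838 counts in the sensitive and 815 in the resistant library. Other tested genes of the list moved in that line. SKAP2 went from 1349 to 483 and SMUG1 from 653 to 193 counts, each at least 2-fold lower in WM983A only. HIBADH went from 1323 to 779 and CBX5 from 2004 to 3032 counts.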
